A study of Caenorhabditis elegans with 8 samples.

Results

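The neuropeptide genes of the nematode Caenorhabditis elegans described here are the flp genes, which encode FMRFamide-like peptides, and the nlp genes, which encode other neuropeptide-like proteins. Their probe sets were taken as those to which the platform annotation gives a single gene symbol starting with flp- or nlp-. The genes nlp-24 to nlp-34, which form an epidermal antimicrobial group, were left out. The choice gave 84 probe sets of 22548 that are not controls, for 73 genes, of which 25 are flp and 48 are nlp genes. A filter on dim probe sets left 74 of these probe sets and 63 of the genes for testing, 23 flp and 40 nlp.

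Neuropeptides are made as precursor proteins, cut by proprotein convertases and carboxypeptidases, often amidated at the carboxy terminus, and released from dense core vesicles. Most act on G protein-coupled receptors, at synapses or over a distance, and in worms they set feeding, movement, egg laying, sleep and fat stores with the food supply. Most flp and nlp genes are expressed in few neurons, and some, such as nlp-40, are expressed in the intestine.

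The series asked how whole adult animals respond to fasting in mutants of the microRNA machinery and of an insulin signalling factor. Total RNA of 4 strains, each fasting and fed, was labelled by 3-prime in vitro transcription and measured on 8 Affymetrix arrays. The strains were drsh-1(ok369), a mutant of the nuclear enzyme Drosha that crops microRNA precursors; ain-1(tm3681), a mutant of a GW182 protein that works with Argonaute in microRNA silencing; daf-16(mu86), a mutant of the FOXO transcription factor under insulin signalling; and the wild type N2. All animals grew at 20 °C on the bacterium OP50 and went onto plates with FUDR, a drug that blocks DNA synthesis and so the making of progeny, at day 0. On day 2 they were moved to FUDR plates that held no bacteria (fasting) or UV-killed OP50 (fed), and all were collected as day 4 adults. Each mutant is a single allele, and each of the 8 groups is 1 array, so there are no replicates. The p-values given below therefore measure the spread of the 8 arrays around a model in which strain and food add up.

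The deposited values are intensities on a linear scale with array medians of 35.15 to 37.68. The targeted genes checked the labels of 2 mutants. A drsh-1 probe set read 17.1 and 14.0 in fasting and fed drsh-1 mutants, against 185 and 183 in fasting and fed wild type, and another read 357 and 397 in drsh-1 mutants, against 68.8 and 68.7 in wild type. A daf-16 probe set read 8.98 and 9.27 in fasting and fed daf-16 mutants, against 69.5 and 76.4 in wild type. No ain-1 probe set was low in ain-1 mutants, with the brightest at 202 and 99.6 in fasting and fed ain-1 mutants and at 203 and 132 in wild type, which checks nothing about that label. In the daf-16 fasting array the catalase control had a 3-prime to 5-prime ratio of 3.40, against 1.47 to 1.79 on the other 7 arrays. The actin, Gapdh and ubiquitin ratios there were 2.11, 1.20 and 7.61, against at most 2.06, 1.19 and 6.74 on the other 7.

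The fasting and fed arrays of drsh-1 differed less upward than those of any other strain, with 5 of 15783 tested probe sets at least 2-fold higher in fasting and 164 lower. In the other strains 407 to 1131 were higher and 530 to 791 lower. Only the label records the food of the drsh-1 fed animals. A small response of the strain and a drsh-1 fed array that does not match its label therefore cannot be told apart. This limit touches each drsh-1 fasting change and each ratio of fed drsh-1 to fed wild type given here. Body wall muscle markers summed to 4035 in fasting and 5763 in fed drsh-1, and epidermis markers to 1221 and 1887, so both were lower in fasting there too. The intestine marker ifb-2 read 66.5 and 218 in fasting and fed drsh-1, against 46.3 and 242 in wild type. The insulin-like gene ins-7 differed between the strains, at 427 and 421 in fasting and fed drsh-1, against 33.9 and 352 in wild type.

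Neuropeptide probe sets were dim. The median over the 63 tested genes of the mean intensity on the 8 arrays was 68.0, and the median over all 15783 tested probe sets was 109. Of the 63 genes, 41 had a mean intensity over 50, 24 over 100 and 7 over 200. The 8 brightest probe sets belonged to nlp-40, nlp-36, nlp-99, flp-6, flp-9, nlp-51, flp-1 and nlp-39, and brightness also depends on the probe, so it gives no order of RNA levels between genes. The 10 genes under the filter, flp-23, flp-27, nlp-22, nlp-23, nlp-60, nlp-62, nlp-67, nlp-69, nlp-90 and nlp-101, read between 6.46 and 17.8 on every array. Among these nlp-22, which encodes a sleep peptide of larvae, had a mean of 13.6, just under the filter, and nlp-53 had a mean of 16.5, just over it.

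Across the 8 arrays the widest span belonged to nlp-16, with a highest intensity 13.4 times the lowest, then to nlp-51 at 9.38 times. The map of all tested genes is ordered by mean fasting change, so genes brighter in fasting lie at its top by construction. Their fasting change was less marked in drsh-1, and lower in the map lie single genes whose level followed the strain.

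**Figure D1:**
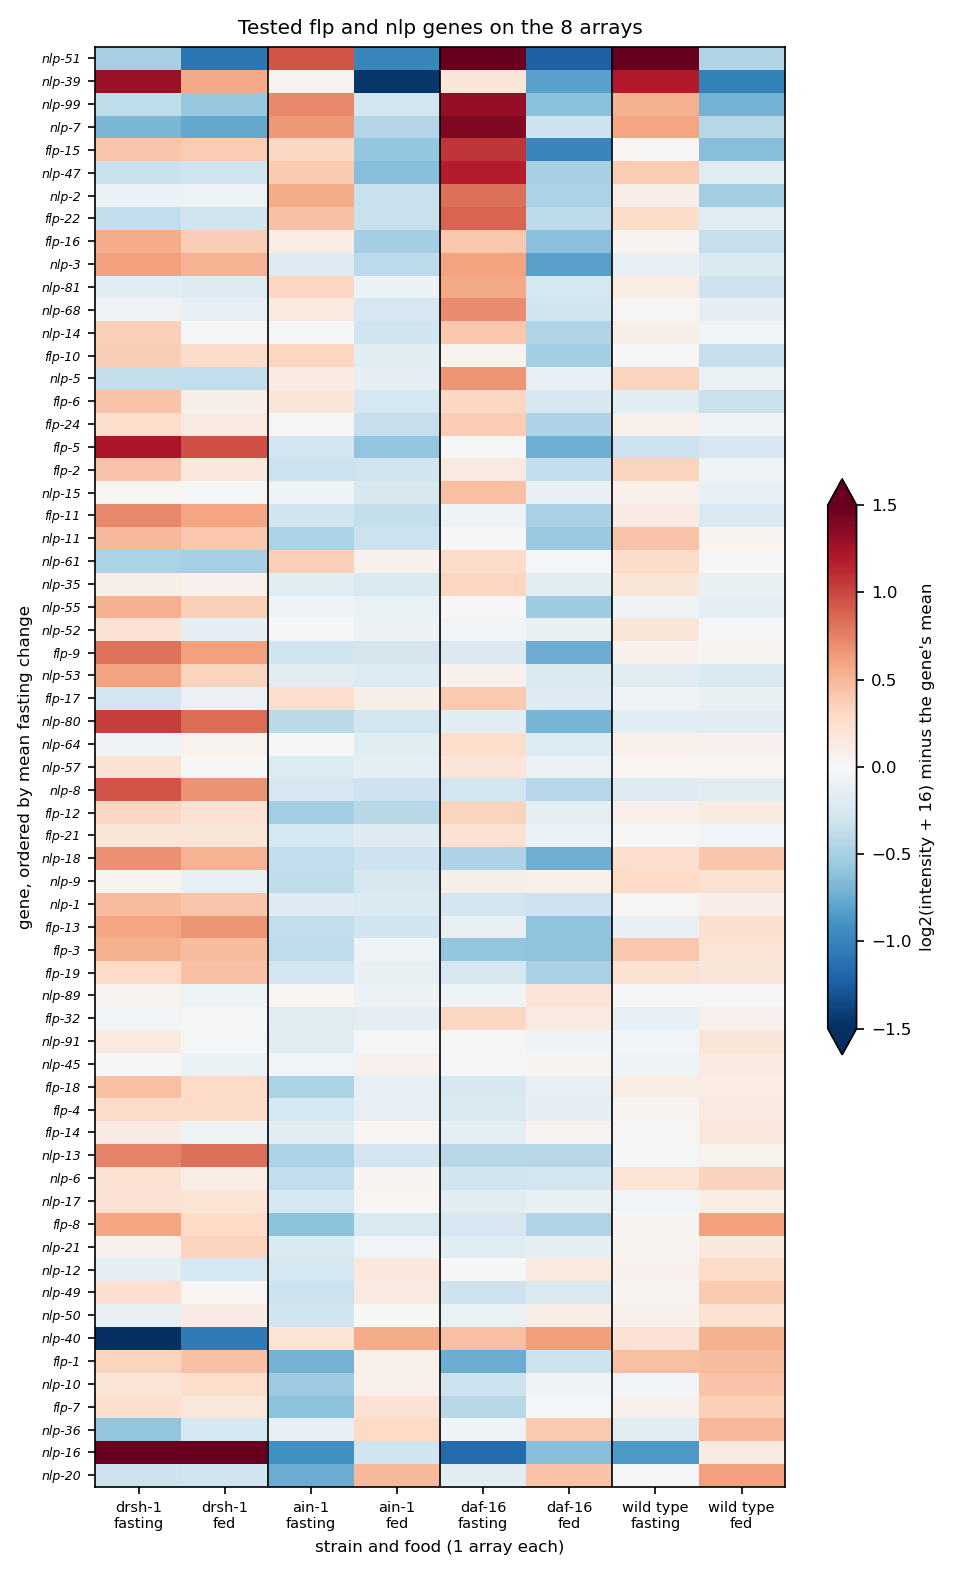
Each row is 1 of the 63 tested flp and nlp genes, ordered by mean fasting change, and each column is 1 of the 8 arrays; the colour is log2(intensity + 16) minus the gene's mean over the arrays. nlp-51, at the top, read 536 and 108.2 in fasting and fed wild type, and nlp-40 was dimmer on both drsh-1 arrays (449 and 628) than on the other 6.

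In fasting, nlp-51 and nlp-39 rose over the 4 strains, and no neuropeptide gene fell past the threshold. The additive model was fitted with limma on log2(intensity + 16) over all tested probe sets, with Benjamini-Hochberg adjustment and a threshold of 0.05. The count of 2 of 63 genes higher stands beside 0.431% of all tested probe sets higher, and the count of 0 lower stands beside 2.88% lower. At an unadjusted p under 0.05, 20 of 63 genes were higher (31.7%, against 17.5% of all probe sets) and 7 were lower (11.1%, against 12.6%). The median change of the 63 genes was 0.11 on the log2 scale and that of all probe sets was 0.01. Since whole animals were used, more cells that express a gene and more of its RNA per cell cannot be told apart.

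nlp-51 read 105 fasting and 64.6 fed in drsh-1, 313 and 70.7 in ain-1 mutants, 495 and 57.1 in daf-16 mutants, and 536 and 108.2 in wild type. It was brighter in fasting in each of the 4 strains, with fasting-to-fed ratios of 1.63 in drsh-1, 4.43 in ain-1 mutants, 8.67 in daf-16 mutants and 4.96 in wild type. The mean log2 change was 1.87 ± 0.33 (SE), or 3.65-fold, with a limma adjusted p of 0.036. The suffix of the nlp-51 probe set marks probes that can also match other transcripts, so its signal may mix several RNAs. The probe sets that stood for other genes, such as flp-1, flp-6, flp-9, flp-11 and flp-12, also carry a suffix of that kind.

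nlp-39 read 397 fasting and 236 fed in drsh-1, 159.9 and 45.6 in ain-1 mutants, 175 and 80.3 in daf-16 mutants, and 369.5 and 67.5 in wild type. It too was brighter in fasting in all 4 strains, by ratios of 1.69, 3.5, 2.18 and 5.47 in that order. The mean log2 change was 1.36 ± 0.24 (SE), or 2.56-fold, with a limma adjusted p of 0.038. In drsh-1 the fed level was already 3.49 times that of fed wild type.

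Fits without 1 pair of arrays left 2 residual degrees of freedom. With the drsh-1 pair left out, the mean log2 change was 2.29 for nlp-51 (limma adjusted p = 0.0014) and 1.57 for nlp-39 (limma adjusted p = 0.0076). Without the ain-1 pair the changes were 1.85 and 1.3 (limma adjusted p = 0.16 and 0.19), without the daf-16 pair 1.55 and 1.48 (limma adjusted p = 0.15 and 0.13), and without the wild-type pair 1.77 and 1.07 (limma adjusted p = 0.18 and 0.12). The changes thus stayed above 1 log2 unit in all 4 fits. In each of the 3 fits that lost both calls, no neuropeptide gene was called and 0.019% of all probe sets were called higher, against 0.431% with all 8 arrays.

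The next 6 genes by mean change did not pass the adjusted threshold over the 4 strains. nlp-99 read 239 fasting and 208 fed in drsh-1, 529.9 and 255 in ain-1 mutants, 808 and 199 in daf-16 mutants, and 463 and 186 in wild type, a mean log2 change of 1.09 ± 0.26 (limma adjusted p = 0.069). nlp-7, whose peptides act on egg laying, read 65.9 fasting and 61.3 fed in drsh-1, 190.4 and 80.5 in ain-1 mutants, 326 and 90.2 in daf-16 mutants, and 181 and 81.2 in wild type (0.97 ± 0.25, limma adjusted p = 0.074). Both were at least 2.07 times brighter in fasting in ain-1, daf-16 and wild type, and 1.15 and 1.08 times in drsh-1. flp-15, which encodes ligands of the receptor NPR-3, read 189 fasting and 183 fed in drsh-1, 175 and 86.5 in ain-1 mutants, 307 and 61.7 in daf-16 mutants, and 139 and 82.2 in wild type (0.91 ± 0.30, limma adjusted p = 0.11). The fed drsh-1 array was thus above the fed wild-type array for flp-15, by 2.23 times.

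nlp-47, which encodes a peptide like the adipokinetic and gonadotropin-releasing hormones, read 99.5 fasting and 102 fed in drsh-1, 176 and 77.4 in ain-1 mutants, 313 and 86.7 in daf-16 mutants, and 173 and 113 in wild type (0.81 ± 0.27, limma adjusted p = 0.11). nlp-2, a relative of nlp-22 and nlp-23, read 29.6 fasting and 29.9 fed in drsh-1, 55.2 and 22.4 in ain-1 mutants, 69.6 and 18.9 in daf-16 mutants, and 36.0 and 17.8 in wild type (0.70 ± 0.19, limma adjusted p = 0.082). flp-22 read 126 fasting and 134 fed in drsh-1, 234 and 131 in ain-1 mutants, 321 and 125 in daf-16 mutants, and 208 and 147 in wild type (0.60 ± 0.21, limma adjusted p = 0.12). In each of these 3 genes the fasting array was the brighter one in ain-1, daf-16 and wild type and slightly the dimmer one in drsh-1. Among these 8 genes, the other tested probe sets of nlp-99 and flp-15 had the same sign, with 0.70 for the second nlp-99 probe set and 1.15 and 0.28 for the other flp-15 probe sets.

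**Figure D2:**
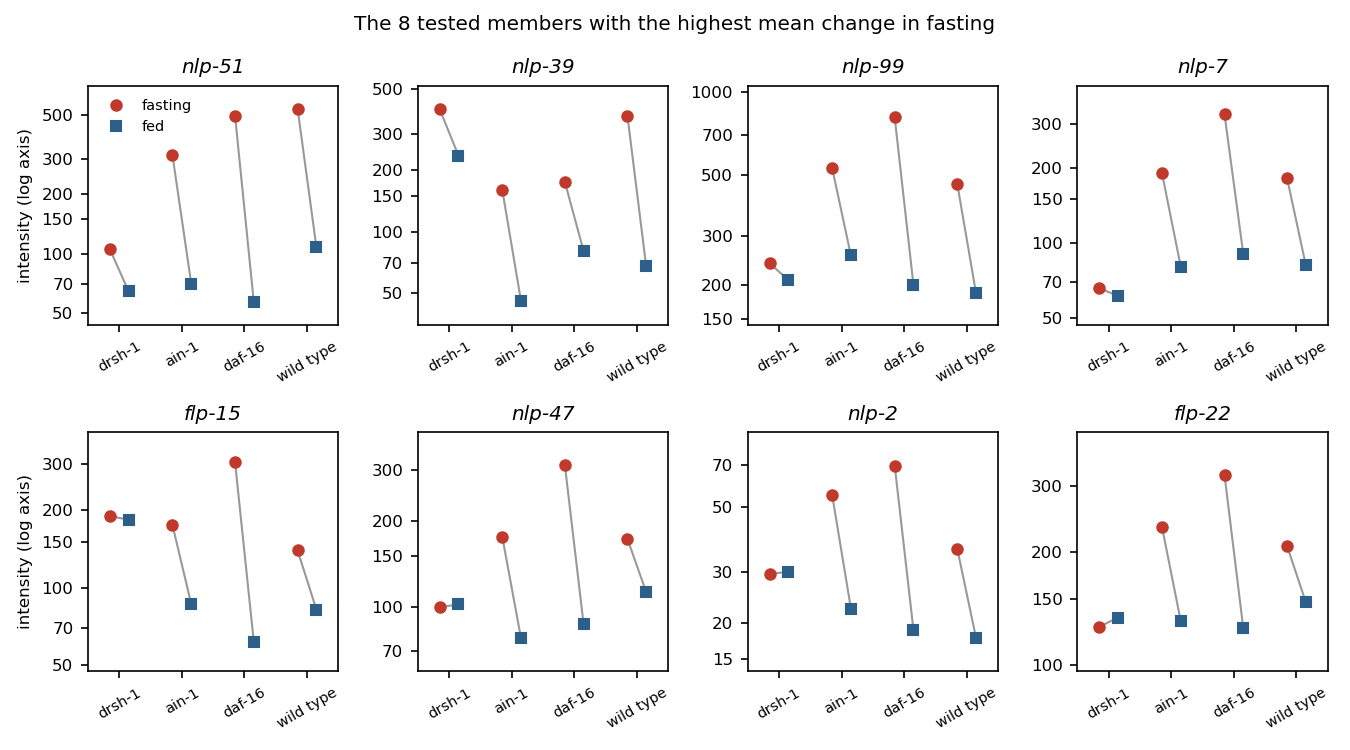
Intensity on a log axis in fasting (red circles) and fed (blue squares) animals of each strain, 1 array per point, for the 8 tested genes with the highest mean change. nlp-51 stands at 536 and 108.2 in fasting and fed wild type and nlp-7 at 181 and 81.2, while nlp-7 stands at 65.9 and 61.3 in fasting and fed drsh-1.

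With the drsh-1 arrays left out of the same model, 12 of the 63 genes were called higher (19%, against 15% of all probe sets) and 4 lower (6.35%, against 8.97%). The 12 were nlp-51, nlp-7, nlp-99, nlp-2, nlp-39, flp-16, nlp-47, nlp-81, flp-22, flp-15, nlp-5 and flp-10, of which flp-10 encodes a ligand of EGL-6 that inhibits egg laying. The mean log2 change over the 3 strains was 2.29 ± 0.19 for nlp-51, 1.40 ± 0.20 for nlp-99, 1.27 ± 0.17 for nlp-7 and 0.94 ± 0.13 for nlp-2. The 4 lower genes were nlp-16 at -0.71 ± 0.12, nlp-20 at -0.81 ± 0.17, nlp-36 at -0.51 ± 0.12 and nlp-10 at -0.45 ± 0.12. With the daf-16 arrays left out instead, no gene was called in either direction by limma, against 0.019% of all probe sets higher and 0.596% lower. At an unadjusted p under 0.05 in that fit, 11 of 63 genes were higher (17.5%, beside 11.2% of all probe sets) and 5 lower (7.94%, beside 8.83%).

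At the other end, the lowest mean changes in fasting over the 4 strains belonged to nlp-20, nlp-16, nlp-36, flp-7, nlp-10, flp-1, nlp-40 and nlp-50, and none passed the adjusted threshold. nlp-20 read 139.6 fasting and 140.4 fed in drsh-1, 99.2 and 253 in ain-1 mutants, 157 and 243 in daf-16 mutants, and 174 and 278 in wild type, a mean log2 change of -0.61 ± 0.20 (limma adjusted p = 0.10). nlp-36 read 258 fasting and 329 fed in drsh-1, 365 and 495 in ain-1 mutants, 380 and 526 in daf-16 mutants, and 355 and 568 in wild type (-0.47 ± 0.11, limma adjusted p = 0.065). nlp-40, which encodes an intestinal peptide that sets off the expulsion step of defecation, read 449 fasting and 628 fed in drsh-1, 1525 and 1947 in ain-1 mutants, 1809 and 2059.8 in daf-16 mutants, and 1543 and 1917 in wild type (-0.33 ± 0.09, limma adjusted p = 0.080).

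nlp-36 and nlp-40 were dimmer in fasting in all 4 strains, as were flp-1, nlp-10, nlp-20, nlp-21 and nlp-50. flp-7, which encodes peptides known to promote fat loss through a receptor in the intestine, read 103 fasting and 95.5 fed in drsh-1, 48.9 and 99.3 in ain-1 mutants, 58.6 and 81.7 in daf-16 mutants, and 88.2 and 111 in wild type, so it was dimmer in fasting in each strain but drsh-1. In the same test 5 of 12 intestine markers fell (41.7%, beside 2.88% of all probe sets), with a list median of -0.51. Of 11 body wall muscle markers 6 fell (54.5%), with a list median of -0.77. Of the 19 tested neuron markers 0 were called, with a list median of 0.00. Intestine markers summed to 6178 to 13414 in fasting arrays and 8681 to 15578 in fed arrays, and neuron markers to 6088 to 7132 and 5742 to 6845. Their part in the neuropeptide values was not tested.

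The number of neuropeptide genes at least 2-fold apart in fasting, on the log2(intensity + 16) scale, is a description of 1 pair of arrays per strain, with no test. In drsh-1, 0 of 63 genes were 2-fold higher, where 0.0317% of all probe sets were, and 0 were 2-fold lower, where 1.04% were. In ain-1, 5 of 63 genes were 2-fold higher, beside 2.72% of all probe sets, and only nlp-20 was 2-fold lower, beside 3.49%. In daf-16, 10 of 63 genes were 2-fold higher, beside 7.17% of all probe sets, and 0 lower, beside 5.01%. In wild type, 4 of 63 genes were 2-fold higher, beside 2.58% of all probe sets, and 0 lower, beside 3.36%.

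The 4 in wild type were nlp-39, nlp-51, nlp-99 and nlp-7, the 5 in ain-1 were these and nlp-47, and the 10 in daf-16 were nlp-51, flp-15, nlp-99, nlp-7, nlp-47, nlp-3, nlp-2, flp-22, flp-16 and nlp-68.

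**Figure D3:**
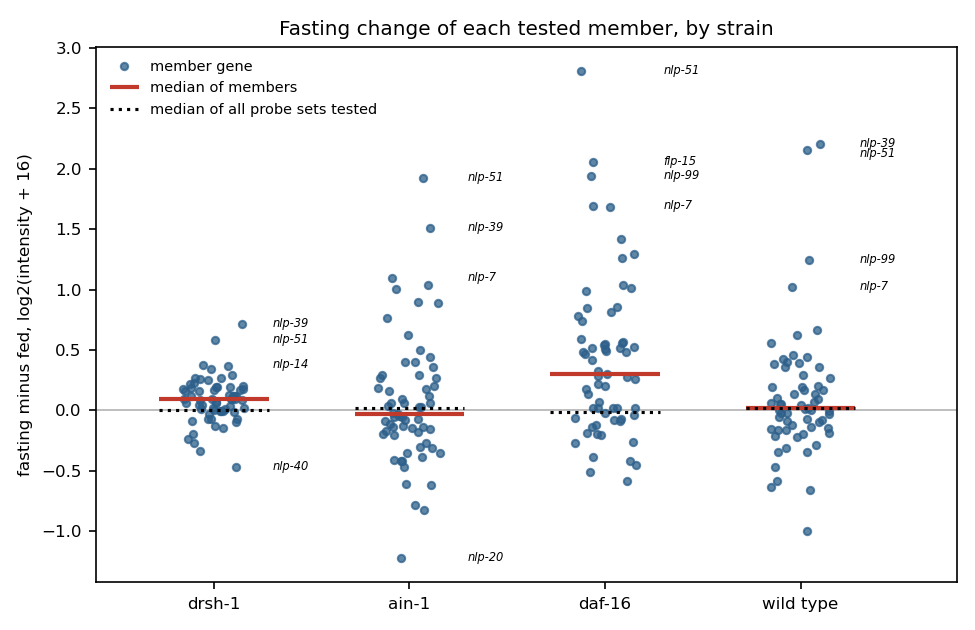
Fasting minus fed on log2(intensity + 16) for each of the 63 tested genes (points) in each strain, with the median of the genes (red line) and of all tested probe sets (dotted line). The gene medians were 0.09 in drsh-1, -0.03 in ain-1 mutants, 0.30 in daf-16 mutants and 0.02 in wild type, and in drsh-1 no gene lies 1 log2 unit or more from 0.

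The difference in response was tested for drsh-1 by a term for its fasting change minus that of the other 3 strains, which left 2 residual degrees of freedom. No neuropeptide gene was called by limma, and 0% of all probe sets were called higher and 0% lower. At an unadjusted p under 0.05, nlp-51, nlp-2, nlp-7, nlp-99, nlp-47 and flp-22 had a smaller change in drsh-1, 6 of 63 genes (9.52%, against 8.59% of all probe sets). nlp-16 had a more positive change there, 1 of 63 (1.59%, against 5.06%). The difference was -1.71 ± 0.39 for nlp-51 (limma adjusted p = 0.22), -1.19 ± 0.34 for nlp-7 (limma adjusted p = 0.26) and -0.95 ± 0.27 for nlp-2 (limma adjusted p = 0.25). The smaller changes in drsh-1 are therefore not shown to differ past the adjusted threshold, and their share among neuropeptide genes was near that of all probe sets.

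Within daf-16 the median fasting change of the 63 genes was 0.30, beside -0.01 over all probe sets. In the matching test for daf-16 no gene was called by limma, beside 0% of all probe sets higher and 0% lower. At an unadjusted p under 0.05, 11 of 63 genes had a more positive change in daf-16 (17.5%, against 6.23% of all probe sets) and nlp-89 a more negative one (1.59%, against 8.28%). The median difference was 0.24 over the 63 genes and -0.01 over all probe sets, and 53 of 63 genes had a value above 0. The 19 neuron markers had a median of 0.26 in that test.

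nlp-3, a gene of the egg-laying motor neurons, read 104.9 fasting and 29.2 fed in daf-16, against 105 and 97.9 in drsh-1 mutants, 53.6 and 44.4 in ain-1 mutants, and 56.9 and 52 in wild type. Its fasting change was thus marked in daf-16, where the fed array was also the dimmest of the 8, and the difference was 1.29 ± 0.20 (limma adjusted p = 0.29). flp-15 had a difference of 1.52 ± 0.38 (limma adjusted p = 0.29). nlp-68 read 65.9 fasting and 24.6 fed in daf-16, against 32.1 and 29.9 in drsh-1 mutants, 39.0 and 25.7 in ain-1 mutants, and 34.6 and 29.1 in wild type (0.80 ± 0.19, limma adjusted p = 0.29). These rest on 1 daf-16 pair, whose fasting array also had a catalase control ratio of 3.40 and a ubiquitin control ratio of 7.61, against 6.10 to 6.74 on the other 7 arrays. The actin and Gapdh control ratios were 2.11 and 1.20 on the daf-16 fasting array, close to 2.06 and 1.19 on the daf-16 fed array. The control probe set DapX-3 read 178 on the daf-16 fasting array, against 70.1 to 91.8 on the other 7. BioC-5 read 330 there, against 220 to 254, and CreX-3 read 6132, against 4978 to 6124. The part of that array's RNA quality and control levels in the neuropeptide values was not tested.

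In drsh-1 mutants 7 of 63 neuropeptide genes were higher than in wild type and 1 was lower, over fasting and fed arrays in the additive model. All mutant comparisons share the same wild-type arrays. The 7 higher genes were nlp-16, nlp-53, nlp-8, flp-5, nlp-13, nlp-80 and flp-11, 11.1% of the 63 beside 7.98% of all probe sets. Of these, nlp-53 passed the dim filter only through its drsh-1 arrays. The lower gene was nlp-40, 1.59% beside 3.74%. Among the flp genes flp-5 and flp-11 were called, 2 of 23, and among the nlp genes 5 of 40 were higher and 1 was lower. At an unadjusted p under 0.05, 16 genes were higher (25.4%, against 17.4%) and 5 lower (7.94%, against 11.4%). Of 19 tested neuron markers 2 rose (unc-13 and unc-18, vesicle release genes) and 0 fell, with a list median of 0.15 beside 0.10 for the neuropeptide genes. Neuron markers summed to 6778 and 6845 in fasting and fed drsh-1, against 6356 and 6210.5 in wild type. Their part in the neuropeptide values was not tested.

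nlp-40 read 449 and 628 in fasting and fed drsh-1, 1525 and 1947 in ain-1 mutants and 1809 and 2059.8 in daf-16 mutants, against 1543 and 1917 in wild type. Both drsh-1 arrays thus lay below the other 6. The log2 difference was -1.67 ± 0.13, 3.17-fold lower, with a limma adjusted p of 0.0014. Of 12 intestine markers 2 fell in drsh-1 (16.7%, beside 3.74% of all probe sets), and the list median was -0.28. The 2 were the protease gene asp-1 and the esterase gene ges-1. They were lower by 1.17 ± 0.12 and 1.38 ± 0.18 on the log2 scale (limma adjusted p = 0.0034 and 0.0063). Intestine markers summed to 6178 and 8681 in fasting and fed drsh-1, against 10072 and 15577 in wild type. Such sums are weighted toward bright genes. asp-1 alone read 1852 and 2610 in fasting and fed drsh-1, against 4348 and 5700 in wild type. Single markers also went the other way, as act-5 read 382 and 693 in fasting and fed drsh-1, against 116 and 601 in wild type. The part of the intestine's share of the RNA in the nlp-40 level was not tested.

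nlp-16 read 338 and 297 in fasting and fed drsh-1, 32.8 and 58.5 in ain-1 mutants and 25.2 and 42.6 in daf-16 mutants, against 34.3 and 84.5 in wild type. It was brighter on both drsh-1 arrays than on any other, and in the other 3 strains the fasting array was the dimmer of each pair. The log2 difference was 2.23 ± 0.27, 4.69-fold higher, with a limma adjusted p of 0.0055, and its second probe set gave 2.18 ± 0.35. The fasting array of drsh-1 read 9.88 times that of wild type and the fed array 3.52 times.

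flp-5 read 259 and 215 in fasting and fed drsh-1, 80.6 and 62.7 in ain-1 mutants and 102 and 54.8 in daf-16 mutants, against 78.5 and 83.0 in wild type. The log2 difference was 1.38 ± 0.22 (limma adjusted p = 0.012). nlp-80 read 263 and 226 in drsh-1, against 105.6 and 105.6 in wild type, with a difference of 1.10 ± 0.20 (limma adjusted p = 0.019). In both genes the drsh-1 arrays were the brightest 2 of the 8. nlp-8, one of the genes through which the neuron ALA brings on sleep after stress, read 110.5 and 88.9 in fasting and fed drsh-1, against 41.5 and 42.6 in wild type (0.99 ± 0.13, limma adjusted p = 0.0073). flp-11, the main sleep peptide gene of the neuron RIS, read 128 and 116 in fasting and fed drsh-1, against 79.6 and 58.6 in wild type (0.71 ± 0.16, limma adjusted p = 0.037). Both genes were brighter on each drsh-1 array than on either wild-type array. nlp-13 read 112 and 120.2 in fasting and fed drsh-1, against 59.2 and 63.5 in wild type (0.77 ± 0.14, limma adjusted p = 0.017). nlp-53, at the edge of the dim filter, read 32.2 and 24.2 in fasting and fed drsh-1, against 12.2 and 11 in wild type (0.67 ± 0.08, limma adjusted p = 0.0056). It passed that filter only through its drsh-1 arrays. With no filter on dim probe sets its limma adjusted p was 0.0041. In that fit 7 of 73 genes were called higher, beside 5.62% of all probe sets.

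The call was lost for nlp-13 (limma adjusted p = 0.061) and flp-11 (limma adjusted p = 0.098) when the ain-1 pair was left out. In that fit limma called 5 of 63 genes higher, beside 4.02% of all probe sets, and 1 lower, beside 1.93%. Without the daf-16 pair it called 11 higher (1662 of all 15783 probe sets) and 3 lower (846 of all), and after quantile normalization 6 higher (7.43% of all) and 3 lower (4.44%). The counts of neuropeptide genes without a pair thus moved with those of all probe sets. The 2 tested probe sets of nlp-6 disagreed, with 0.64 ± 0.16 for the dimmer one (limma adjusted p = 0.046) and -0.10 ± 0.17 for the brighter one that stood for the gene.

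**Figure D4:**
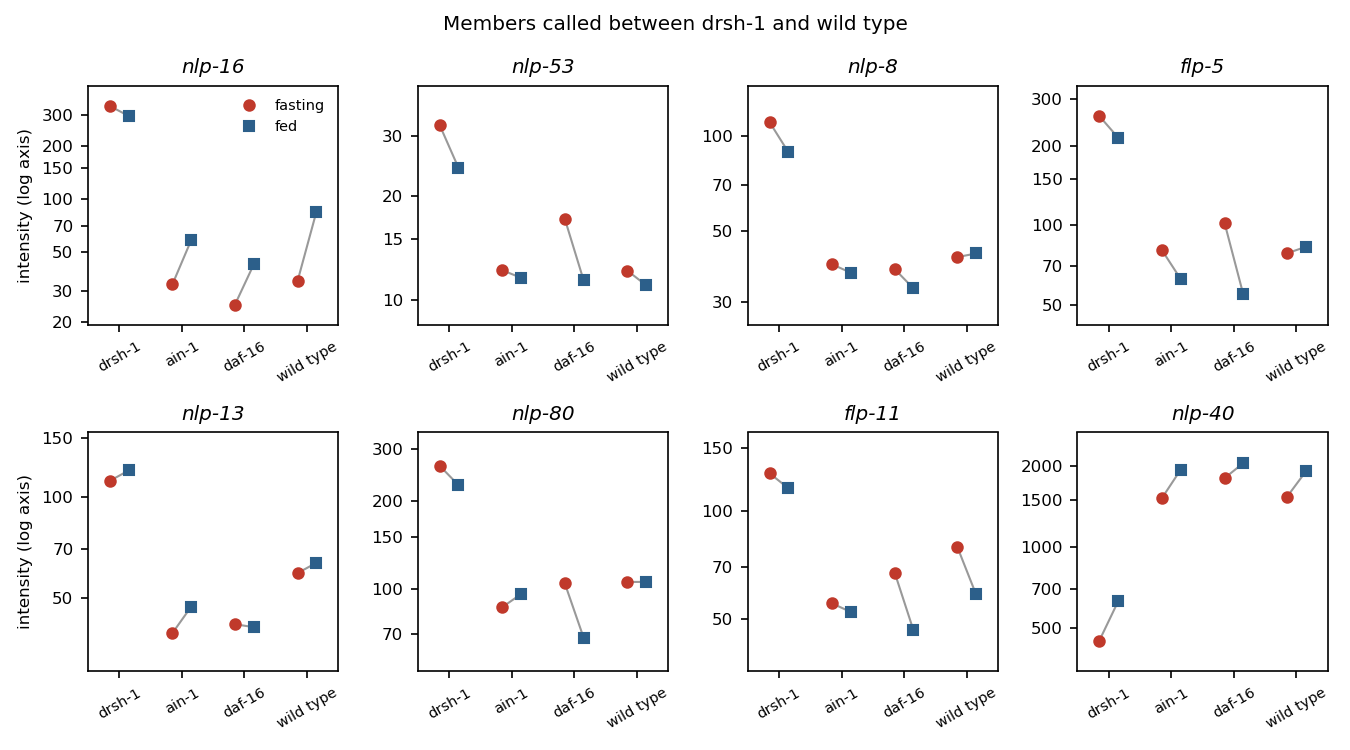
Intensity on a log axis in fasting (red circles) and fed (blue squares) animals of each strain, 1 array per point, for the 8 genes called between drsh-1 and wild type. nlp-16 stands at 338 and 297 in fasting and fed drsh-1 and at 34.3 and 84.5 in wild type, and nlp-40, the lower gene, at 449 and 628 in drsh-1 and at 1543 and 1917 in wild type.

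No neuropeptide gene was called between ain-1 mutants and wild type, by limma, where 0.00634% of all probe sets were called higher and 0.0444% lower. At an unadjusted p under 0.05, 0 of 63 genes were higher (3.38% of all probe sets) and 14 were lower, 22.2% of the 63 beside 2.46% of all probe sets. The 14 were nlp-18, flp-4, nlp-9, flp-1, flp-8, flp-3, nlp-21, nlp-11, flp-12, nlp-13, flp-19, flp-2, nlp-6 and nlp-10. The median difference was -0.19 over the 63 genes and 0.01 over all probe sets, and 49 of 63 genes had a value below 0. The smallest limma adjusted p among the genes was 0.53, for nlp-18.

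Between daf-16 mutants and wild type no neuropeptide gene was called by limma, beside 0% of all probe sets higher and 0% lower. At an unadjusted p under 0.05, 0 genes were higher (4.57% of all probe sets) and 12 were lower, 19% beside 4.2%. The 12 were flp-3, nlp-18, flp-1, flp-19, flp-4, nlp-21, nlp-6, nlp-13, nlp-1, flp-8, flp-9 and nlp-11. The median difference was -0.11 over the 63 genes and 0.04 over all probe sets.

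flp-1, whose peptides modulate locomotion, read 112 and 156 in fasting and fed daf-16, 115 and 211 in ain-1 mutants and 256 and 274 in drsh-1, against 278 and 282 in wild type. The difference from wild type was -0.99 ± 0.22 in daf-16 mutants (limma adjusted p = 0.27) and -0.78 ± 0.22 in ain-1 mutants (limma adjusted p = 0.57). nlp-18, a ligand gene of the cholecystokinin-like receptor CKR-1, read 59.7 and 47.2 in fasting and fed daf-16, 65.3 and 68.6 in ain-1 mutants and 153 and 134 in drsh-1, against 108.6 and 124 in wild type. All arrays of ain-1 and daf-16 were thus below all wild-type arrays for both genes. flp-3 read 33.9 and 33.3 in fasting and fed daf-16, 41.4 and 55.1 in ain-1 mutants and 92.5 and 88.0 in drsh-1, against 83.0 and 70.3 in wild type, with differences of -0.90 ± 0.16 in daf-16 mutants (limma adjusted p = 0.20) and -0.53 ± 0.16 in ain-1 mutants (limma adjusted p = 0.64).

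Neuron markers summed to 6088 and 5742 in fasting and fed ain-1 and to 7132 and 6002 in daf-16 mutants, against 6356 and 6210.5 in wild type, with list medians of -0.04 in ain-1 mutants and 0.02 in daf-16 mutants. The 7 pharynx markers summed to 286 and 372 in ain-1 and to 305 and 374 in daf-16 mutants, against 462 and 646 in wild type. Body wall muscle markers summed to 4001 and 6565 in fasting and fed ain-1 and to 3292 and 5207 in daf-16 mutants, against 5709 and 10612 in wild type. Of 11 such markers 0 were called by limma in either mutant, with list medians of -0.53 in ain-1 and -1.08 in daf-16. In drsh-1, where the neuropeptide median was 0.10, the muscle markers were also lower, with a list median of -0.52. There 3 of 11 were called lower (27.3%, beside 3.74% of all probe sets) and 1 higher (9.09%, beside 7.98%). The part of the markers of these tissues in the lower neuropeptide values of ain-1 and daf-16 was not tested.

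**Figure D5:**
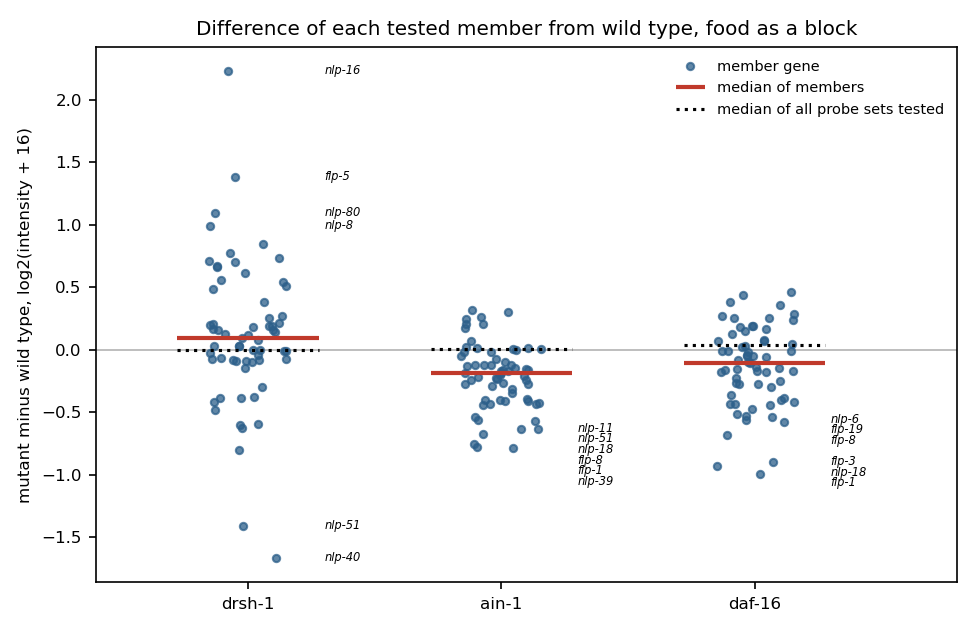
Difference from wild type on log2(intensity + 16) in the additive model for each of the 63 tested genes (points) in each mutant, with the median of the genes (red line) and of all tested probe sets (dotted line). The gene medians were 0.10 in drsh-1, -0.19 in ain-1 and -0.11 in daf-16 mutants, and nlp-16 at 2.23 and nlp-40 at -1.67 stand apart in drsh-1.

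Genes that make, store, release and receive the peptides were read from lists drawn up with earlier results in view. Of 13 genes of peptide processing and amidation, 0 were called in fasting over the 4 strains, with a list median of -0.02. The largest changes were in kpc-1, a proprotein convertase gene, at 0.85 ± 0.24 (limma adjusted p = 0.084), and nep-1, a neprilysin gene, at 0.79 ± 0.23 (limma adjusted p = 0.087). kpc-1 read 274 and 279 in fasting and fed drsh-1, 209 and 113 in ain-1 mutants, 230 and 73.6 in daf-16 mutants, and 266 and 111 in wild type, so that both drsh-1 arrays were near the fasting wild-type array. nep-1 read 166 and 179 in fasting and fed drsh-1, 458 and 228 in ain-1 mutants, 668 and 261 in daf-16 mutants, and 504 and 245 in wild type, with no higher fasting array in drsh-1.

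Against wild type, cpd-1, a carboxypeptidase gene, rose in drsh-1, to 128 and 113 in fasting and fed mutants, against 71.5 and 35.6 in wild type (1.02 ± 0.18, limma adjusted p = 0.018, and 0.051 without the ain-1 pair). It was 1 of the 13 genes (7.69%, beside 7.98% of all probe sets), and 0 fell. In ain-1 and daf-16 none of the 13 was called by limma, with list medians of -0.15 and -0.29. egl-3, the convertase gene that cuts most neuropeptide precursors, read 173 and 193 in fasting and fed ain-1 and 195 and 158 in daf-16 mutants, against 274 and 358 in wild type. Its differences were -0.72 ± 0.20 (limma adjusted p = 0.55) and -0.78 ± 0.20 (limma adjusted p = 0.34). pgal-1, a gene of peptide amidation, read 137 and 205 in fasting and fed ain-1 and 113 and 153 in daf-16 mutants, against 229 and 331 in wild type, and did not pass the threshold either (limma adjusted p = 0.67 and 0.26).

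Of 26 tested genes of dense core vesicle biogenesis and release, 0 were called in fasting by limma, and in drsh-1 unc-13 and unc-18 rose (7.69%, beside 7.98% of all probe sets) and 0 fell. unc-13, a vesicle priming gene, read 92.3 and 94.3 in fasting and fed drsh-1, against 42.7 and 40.7 in wild type (0.92 ± 0.16, limma adjusted p = 0.018). unc-18, a syntaxin partner, differed by 0.70 ± 0.15 (limma adjusted p = 0.034, and 0.11 without the ain-1 pair).

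Of 101 measured receptor genes 56 passed the dim filter, and 0 of them were called in fasting, in ain-1 or in daf-16 by limma. In drsh-1 3 rose (5.36%, beside 7.98% of all probe sets) and 0 fell, so none of these lists exceeded the share of all probe sets called higher. trhr-1, a receptor for a peptide like thyrotropin-releasing hormone, read 134 and 99.3 in fasting and fed drsh-1, 25.5 and 22.1 in ain-1 mutants and 25 and 14.8 in daf-16 mutants, against 21.3 and 19 in wild type. Both drsh-1 arrays thus lay above the other 6, and the difference was 1.86 ± 0.12 (limma adjusted p = 0.00092). pdfr-1, the receptor gene of pigment-dispersing factor, differed by 0.96 ± 0.19 (limma adjusted p = 0.025, and 0.068 without the ain-1 pair) and npr-44 by 0.47 ± 0.10 (limma adjusted p = 0.028, and 0.060 without that pair). The dim npr-44 read 27.1 and 21.8 in fasting and fed drsh-1, and 12.5 to 21.8 on the other 6 arrays. Its mean over those 6 lay just under the filter intensity, so it was tested only through its drsh-1 arrays. The receptor list median was 0.02 in fasting and 0.00 in drsh-1.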

How the data were processed

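Each of the 8 groups (4 strains, fasting and fed) is 1 array. The authors deposited linear array intensity for 22625 probe sets. How these were summarised, background-corrected and normalized was not given in the sources used here, and no detection calls were used. After 77 controls were left out, values were transformed as log2(intensity + 16), so changes of dim probe sets are understated. The 30% with the lowest mean (below about 15.71) were left out, which left 15783 probe sets. Symbols came from the platform annotation, and the highest-mean probe set stood for a gene. Probe sets with several symbols (2 that include an nlp gene) were not used. R 4.3.3 and limma 3.58.1 fitted strain plus food with a mean-variance trend, 3 residual degrees of freedom, and Benjamini-Hochberg adjustment over all tested probe sets. On simulated data the fit recovered 72% of 2-fold and 92% of 3-fold changes for fasting, and 44% and 86% for drsh-1. At 1.5-fold it recovered 42% and 22%, and 7 of 157 and 5 of 126 calls were false. These rates hold for the simulated data only and do not give the power of the tests on the real arrays. Named genes were those called, the largest changes each way, the brightest, and called or leading genes of each list. Members and lists were chosen with earlier results of these data known. Alternatives were other filters, normalizations, pseudocounts, variance settings, array weights, no block, and pairs or arrays left out. With 1 array per group, the number of arrays limits precision.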

Additional observations from a re-analysis of the deposited data

How the results depend on the processing

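In fasting, 2 of 63 genes were called higher and 0 lower, and the gene counts that follow are also out of 63. The higher count was 1 with a pseudocount of 64 (0.247% of all probe sets were called higher), 0 without the mean-variance trend (0.146%) and 0 without strain in the model (0.0253%). limma array weights gave 19 higher and 12 lower, beside 23.3% and 16.9% of all probe sets. Leaving out pairs or single arrays gave 0 to 12 higher and 0 to 4 lower, with 12 and 4 without drsh-1 arrays and 0 higher without the arrays of any other strain (0.0127% to 0.019% of all probe sets). nlp-51 kept its call in 9 and nlp-39 in 10 of 21 alternatives, with limma adjusted p between 0.00044 and 0.18 and between 0.00087 and 0.20, and neither turned its sign. The 21 are not independent, since a fit without a single array gives the same mean change as the fit without that array's pair. For nlp-51 that change was 1.77 without the wild-type pair or either of its arrays. In drsh-1 against wild type, 8 genes were called, 5 without food in the model (4 higher and 1 lower, beside 2.93% and 0.57%), and 6 to 14 with a pair left out (14 without the daf-16 pair). nlp-16, nlp-40 and nlp-8 kept their calls in all 11 alternatives and flp-11 in 7. The ain-1 count was 0, and 6 lower with array weights (1.48% of all probe sets), which weighted the ain-1 arrays most (3.55, against 0.42 for daf-16 arrays). For other changed counts the cause was not tested. The fasting test paired the fasting and fed arrays of each strain, and without that pairing the adjusted p was 0.10 for nlp-51 and 0.17 for nlp-39; the labels give no replicate numbers. Dim probe sets limit the smallest changes.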

Other observations

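Other signalling genes gave values beside those of the flp and nlp genes. Whole animals were used, so the tissue in which these genes changed was not measured. Of 25 tested genes for insulin-like and other peptides, 0 were called by limma in fasting or in any mutant against wild type. ins-7, an insulin-like gene, read 427 and 421 in fasting and fed drsh-1, 61.2 and 422 in ain-1 mutants, 174 and 757 in daf-16 mutants, and 33.9 and 352 in wild type, a mean log2 change in fasting of -1.85 ± 0.44 (limma adjusted p = 0.070). The fasting array was thus the dimmer one in every strain but drsh-1.

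Of 15 genes that make or load classical transmitters, 1 fell in fasting (6.67%, beside 2.88% of all probe sets) and 1 fell in drsh-1 (6.67%, beside 3.74%). unc-25, the gene of GABA synthesis, read 19.6 and 30.5 in fasting and fed drsh-1, 17.9 and 31.4 in ain-1 mutants, 15.9 and 30.2 in daf-16 mutants, and 27.1 and 40 in wild type (-0.45 ± 0.06, limma adjusted p = 0.017, and 0.0070 to 0.12 with a pair of arrays left out, lost without the wild-type, ain-1 or daf-16 pair). tbh-1, the gene of the last step of octopamine synthesis, read 244 and 295 in fasting and fed drsh-1, 1689 and 1974 in ain-1 mutants and 630.0 and 1316 in daf-16 mutants, against 2219 and 1644 in wild type. Both drsh-1 arrays were below the other 6, and the difference was -2.76 ± 0.31 (limma adjusted p = 0.0043).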
